A study of Homo sapiens with 2 samples.

Results

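Long non-coding RNA (lncRNA) genes were examined in H2228 cells with and without interleukin 4 (IL4). The genes were chosen by their names and by their measured level. A gene was taken if its symbol was LINC plus digits, SNHG plus digits or MIR...HG, or ended in -AS1, -AS2, -DT or -IT1, and if it had a probe set (a group of short probes on the array) assigned to no other gene. Where a gene had several, the one of highest average signal over both arrays stood for it, and the gene was kept if this value reached 5.5 on the log2 scale in either array. Of 1868 genes with such a name, 317 passed this floor and 1551 did not. The arrays measured 19775 genes in all, of which 11651 passed the same floor. The 317 lncRNA genes were 155 with -AS1 or -AS2, 91 LINC, 48 with -DT, 11 MIR...HG, 6 SNHG and 6 with -IT1.

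H2228 is a human lung adenocarcinoma line that carries variant 3 of the EML4-ALK fusion gene, and the study set out to learn how this fusion transforms lung cells. One culture was left untreated and the other received IL4, for which the series description gives 100 ng/mL and 30 min. RNA of each went on 1 Affymetrix Human Genome U133 Plus 2.0 array. The labels speak of 48 h of transfection with EML4-ALK plasmids, siRNAs or controls for the series, and do not say whether these cultures were transfected. Both groups come from this single line. A single array per condition allows neither a test nor an estimate of the spread between cultures. Every difference below is therefore a difference between these 2 arrays, and fewer cells with an RNA cannot be told apart from less of it per cell.

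An lncRNA is transcribed and often spliced like a messenger RNA but is not known to encode a protein. Names say where such genes lie: -AS genes run on the strand opposite the gene they are named after, -DT genes start near its promoter and run away from it, -IT1 genes lie in one of its introns, and LINC genes stand between genes. MIR...HG genes are hosts from which microRNAs are cut, and SNHG genes carry small nucleolar RNAs, which guide chemical modification of ribosomal RNA, in their introns. IL4 acts through its receptor and JAK kinases on STAT6, a transcription factor that binds paired TTC and GAA half-sites.

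The microRNAs carried by the host genes are shown here because the arrays read the hosts and not the microRNAs. Of the 11 MIR...HG genes 3 were at least 1.5-fold apart. Of all genes past the floor 4.83% were higher and 6.55% lower by as much. In the RefSeq table (GRCh38.p14) all 11 hosts held a mature microRNA within their bounds, 34 distinct mature sequences with 31 distinct seeds. MIR181A2HG holds miR-181a-5p (chr9:124692480-124692502, plus strand) and miR-181b-5p (chr9:124693725-124693747, plus strand). MIR100HG holds miR-100-5p (chr11:122152275-122152296), miR-125b-5p (chr11:122099809-122099830) and let-7a-5p (chr11:122146568-122146589), all on the minus strand. MIRLET7BHG holds let-7a-5p again (chr22:46112752-46112773) and let-7b-5p (chr22:46113691-46113712), both on the plus strand. MIR570HG holds miR-570-3p (chr3:195699460-195699481, plus strand), and MIR9-1HG holds miR-9-5p (chr1:156420392-156420414, minus strand). Capitals mark the seed, bases 2 to 8, which pairs with target messenger RNAs.
hsa-miR-181a-5p: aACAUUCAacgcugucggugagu
hsa-miR-181b-5p: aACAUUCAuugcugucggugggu
hsa-miR-100-5p: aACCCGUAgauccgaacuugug
hsa-miR-125b-5p: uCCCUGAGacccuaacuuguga
hsa-let-7a-5p: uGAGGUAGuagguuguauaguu
hsa-let-7b-5p: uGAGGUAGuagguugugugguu
hsa-miR-570-3p: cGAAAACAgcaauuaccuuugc
hsa-miR-9-5p: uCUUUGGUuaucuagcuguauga
The pair from MIR181A2HG share the seed ACAUUCA. The seed GAGGUAG is shared by let-7a-5p and let-7b-5p, so MIR100HG and MIRLET7BHG carry a seed in common.

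Promoter windows are given for SLC9A3-AS1 and SERTAD4-AS1, those of the 317 genes that were more than 2-fold higher with IL4. SERTAD4-AS1 passed the floor only with IL4. Windows are also given for NNT-AS1 and NCK1-DT, which were more than 2-fold lower and start next to the gene they are named after. Each window runs from 250 bases before to 50 bases after the start site in RefSeq (GRCh38.p14) and is written on the strand of the gene. They are SLC9A3-AS1 at chr5:472986-473285 (plus strand), SERTAD4-AS1 at chr1:210233836-210234135 (minus strand), NNT-AS1 at chr5:43603181-43603480 (minus strand) and NCK1-DT at chr3:136862014-136862313 (minus strand). Capitals mark matches, on either strand, to a STAT site (TTCNNNGAA, or the same half-sites with 4 bases between them, called the wider STAT site here), an NF-kB-like motif (GGG and CC with 5 bases between them), TGACTCA (AP-1) or CACGTG (E-box).
SLC9A3-AS1: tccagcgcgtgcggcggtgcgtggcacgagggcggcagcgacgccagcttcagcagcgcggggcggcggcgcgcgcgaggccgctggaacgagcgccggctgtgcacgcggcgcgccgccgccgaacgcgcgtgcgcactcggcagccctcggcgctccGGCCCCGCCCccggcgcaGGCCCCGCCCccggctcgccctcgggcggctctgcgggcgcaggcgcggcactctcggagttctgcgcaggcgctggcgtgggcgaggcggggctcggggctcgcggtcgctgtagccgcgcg
SERTAD4-AS1: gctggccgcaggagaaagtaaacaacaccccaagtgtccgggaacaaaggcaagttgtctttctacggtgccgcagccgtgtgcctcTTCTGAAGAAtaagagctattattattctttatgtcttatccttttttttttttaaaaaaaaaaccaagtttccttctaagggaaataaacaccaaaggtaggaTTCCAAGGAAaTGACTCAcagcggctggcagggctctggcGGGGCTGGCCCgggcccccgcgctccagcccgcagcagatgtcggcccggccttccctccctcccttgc
NNT-AS1: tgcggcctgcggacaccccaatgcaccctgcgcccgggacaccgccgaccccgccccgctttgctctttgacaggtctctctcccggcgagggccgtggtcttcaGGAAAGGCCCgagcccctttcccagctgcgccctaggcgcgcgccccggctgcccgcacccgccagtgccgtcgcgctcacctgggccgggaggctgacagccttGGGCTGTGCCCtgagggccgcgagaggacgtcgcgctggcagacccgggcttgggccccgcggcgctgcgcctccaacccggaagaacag
NCK1-DT: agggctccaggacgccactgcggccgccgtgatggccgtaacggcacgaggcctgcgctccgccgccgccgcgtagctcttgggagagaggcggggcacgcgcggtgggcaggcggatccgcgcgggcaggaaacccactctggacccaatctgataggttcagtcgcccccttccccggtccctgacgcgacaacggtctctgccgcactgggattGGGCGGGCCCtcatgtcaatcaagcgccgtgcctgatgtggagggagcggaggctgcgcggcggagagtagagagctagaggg
The window of SERTAD4-AS1 held 2 matches to the wider STAT site, and TGACTCA stands right after the one nearer the start site. In the other 3 windows the only matches were to the NF-kB-like motif. Some matches to that motif overlapped each other, in SERTAD4-AS1 and in NNT-AS1. The window of NCK1-DT shares 244 of its bases with that of NCK1 on the other strand, and the windows of NNT-AS1 and NNT share 49.

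Windows were available for 241 of the 317 genes, 288 windows in all. TTCNNNGAA was in 7.29% of them and in 7.66% of all 35116 windows of the table, and the wider STAT site in 5.21% and 6.44%. The NF-kB-like motif was in 69.8% against 58.7%, TGACTCA in 6.94% against 4.95%, and CACGTG in 7.64% against 7.26%. The lncRNA windows also held more G and C, with a median of 64.7% against 58.7% in all windows. Genes with a window that were at least 1.5-fold apart, 7 higher and 20 lower, were counted as genes and not as windows. The wider STAT site was found in 2 of the 7 and 1 of the 20, and TTCNNNGAA in 1 and 2. TGACTCA was found in 2 and 0, the NF-kB-like motif in 4 and 15, and CACGTG in 0 and 0. SERTAD4-AS1, counted for both the wider STAT site and TGACTCA, passed the floor only with IL4. It was thus higher there by the way it was chosen. FAM131B-AS2, the other higher gene with TGACTCA, differed by 0.31 without probe sets that may bind several transcripts, short of 1.5-fold. The median share of G and C was 49.5% in the 12 windows of the higher genes and 63.3% in the 25 of the lower genes. Genes with several windows count more than once in these medians. A match to the letters is a description of the sequence only.

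As a group the lncRNA genes past the floor differed little between the arrays, but those past a higher floor differed more. Of the 317, 206 (65.0%) lay within 1.2-fold, as did 62.5% of all genes past the floor. With IL4, 10 of the 317 (3.16%) were at least 1.5-fold higher, where 4.83% of all genes past the floor were. Lower by as much were 23 (7.26%), where 6.55% of all genes past the floor were. The median difference, IL4 minus untreated, was -0.06 on the log2 scale, with quartiles of -0.24 and 0.12, and the median of all genes past the floor was -0.04. At this floor both shares stood near those of the 11027 protein-coding genes past it, 4.92% higher and 6.52% lower. The lncRNA differences ran from -1.47 to 1.18, and those of all genes past the floor from -3.19 to 4.99. The 317 are part of these 11651 genes, so their range could not be wider, and the ranges do not compare the groups. The nearness of the shares depended on the floor. With a floor of 7.0, 65 lncRNA genes were left, 7.69% higher and 15.4% lower, with a median of -0.17. Of all genes past that floor 5.97% were higher and 7.15% lower. With a floor of 5.0, 2.11% of the lncRNA genes were higher and 5.18% lower, against 4.35% and 5.91% of all genes.

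**Figure D1:**
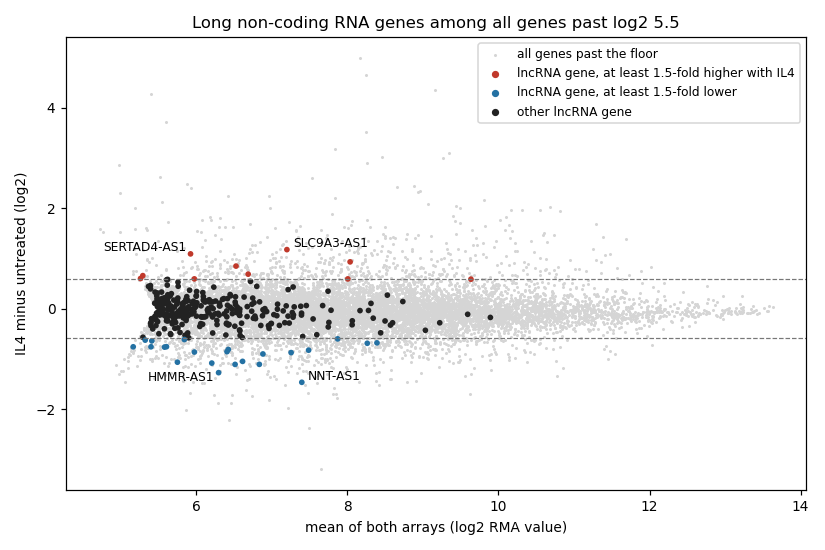
Difference between the IL4 and untreated arrays (log2, vertical axis) against the mean of both (log2 RMA value, horizontal axis) for all 11651 genes past the floor (grey) and the 317 lncRNA genes (black, red where at least 1.5-fold higher, blue where lower). The lncRNA genes lie between -1.47 and 1.18, inside the range of the other genes.

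Many probe sets of these arrays gave low values. In the untreated and the IL4 array 59.0% and 58.6% of all 54675 probe sets were below 5.5, and of 82 olfactory receptor genes, which lung cells are taken not to express, 4 (4.88%) reached the floor in either array. Of the lncRNA genes 255 passed the floor in both arrays, 30 only without IL4 and 32 only with IL4. A gene that passes in 1 array only is the higher one there by the way it was chosen, which holds for 7 of the 23 lower genes and 3 of the 10 higher ones. Nearest to the floor were PDXP-DT, whose higher value was 5.5036, and LINC00951, which stayed out with 5.4983. Nearest to 1.5-fold were MIR100HG just past it, at 0.5864, and SLC25A25-AS1 just short of it, at 0.5817.

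H2228 cells showed the markers of an epithelial line in both arrays. All 11 epithelial markers passed the floor, of which CDH1 (a log2 difference of 0.75), ELF3 (-1.35) and ESRP1 (-0.72) were at least 1.5-fold apart. Of 9 leukocyte markers measured only CD3E passed it, at 5.56 and 5.59, and PTPRC, the pan-leukocyte marker, was at 2.50 and 2.37. Of 10 fibroblast markers COL1A1 passed it, at 10.82 and 11.23, and so did FAP, at 6.74 and 7.22. Of 10 endothelial markers ENG passed it, at 7.47 and 7.46, and so did PECAM1, at 5.96 and 6.11. The part of such genes in the lncRNA values was not tested, and no marker of these 3 other cell types that passed was 1.5-fold apart.

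The 10 genes that were higher in the IL4 array came from all 6 naming classes. SLC9A3-AS1, antisense to the gene of a sodium-hydrogen exchanger, had 6.61 in untreated cells and 7.79 with IL4, a log2 difference of 1.18. SERTAD4-AS1 had 5.38 and 6.47 (1.09) and passed the floor only with IL4. Of the 317 genes only SLC9A3-AS1 and SERTAD4-AS1 were more than 2-fold higher, and each had 1 probe set only. FAM131B-AS2 had 7.57 and 8.50 (0.93), but its further probe sets were below the floor and gave 0.31 and 0.17. TOX-DT, named as a divergent transcript of the transcription factor gene TOX, had 6.10 and 6.95 (0.85). ST20-AS1 had 6.34 and 7.03 (0.69).

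The other 5 stood close to the 1.5-fold level, between 0.59 and 0.66. RUNX1-IT1, from an intron of the transcription factor gene RUNX1, had 4.96 and 5.62, and LINC03027 had 4.96 and 5.56, so both were below the floor in untreated cells. Both miRNA hosts and the snoRNA host of this group passed the floor in each array. SNHG17 had 7.71 and 8.30, and its second probe set, with 7.41 and 7.79 (0.38), was higher too. The values of MIR181A2HG and MIR100HG are given with the host genes below.

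Among the lower genes, NNT-AS1 had the largest difference of the 317. It had 8.13 in untreated cells and 6.66 with IL4, a log2 difference of -1.47. HMMR-AS1 had 6.93 and 5.66 (-1.27). LINC00525 had 7.07 and 5.96 (-1.11). NCK1-DT was close to it with 7.39 and 6.28 (-1.11). The others past 2-fold were LIPT2-AS1 with 6.75 and 5.66 (-1.08), TMPO-AS1 with 6.28 and 5.22 (-1.07) and PITPNA-AS1 with 7.14 and 6.09 (-1.05). All 7 had 1 probe set only, so no other probe set of the gene was there to compare.

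Below 2-fold the list held mostly antisense and divergent transcripts as well. DHRS4-AS1 had 7.33 and 6.43 (-0.90), with -0.13 on its second probe set, which was below the floor. ZNF232-AS1 had 7.69 and 6.82 (-0.87), with -0.35 on its second. LINC00326 had 6.41 and 5.54 (-0.86). HOXA-AS2, a transcript of the HOXA homeobox cluster, was lower on all 3 of its probe sets: 6.83 and 5.98 (-0.86) on the one that stands for it, 6.22 and 5.00 (-1.22) on the second and 4.71 and 3.65 (-1.06) on the third, which was below the floor. MAPKAPK5-AS1 had 8.17 and 7.57 (-0.60), and its 3 further probe sets, all past the floor, gave -0.68, -0.64 and -0.08. C2orf74-DT had 8.73 and 8.05 (-0.68), and 6.51 and 5.77 (-0.74) on its second. In these last 3 genes at least 1 further probe set past the floor was also lower past 1.5-fold.

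Probe sets of a gene give the only check of a value within these arrays. Of the 317 genes 164 had 1 probe set. A further one past the floor was present for 45, and its difference had the same sign in 34. The SD between both differences was 0.27 for these genes and 0.24 over 5285 genes of all kinds. For the 7 genes at least 1.5-fold apart that had such a second probe set it had the same sign in all 7 and passed 1.5-fold in 3. This spread is between probes on the same 2 arrays and holds no variation between cultures.

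**Figure D2:**
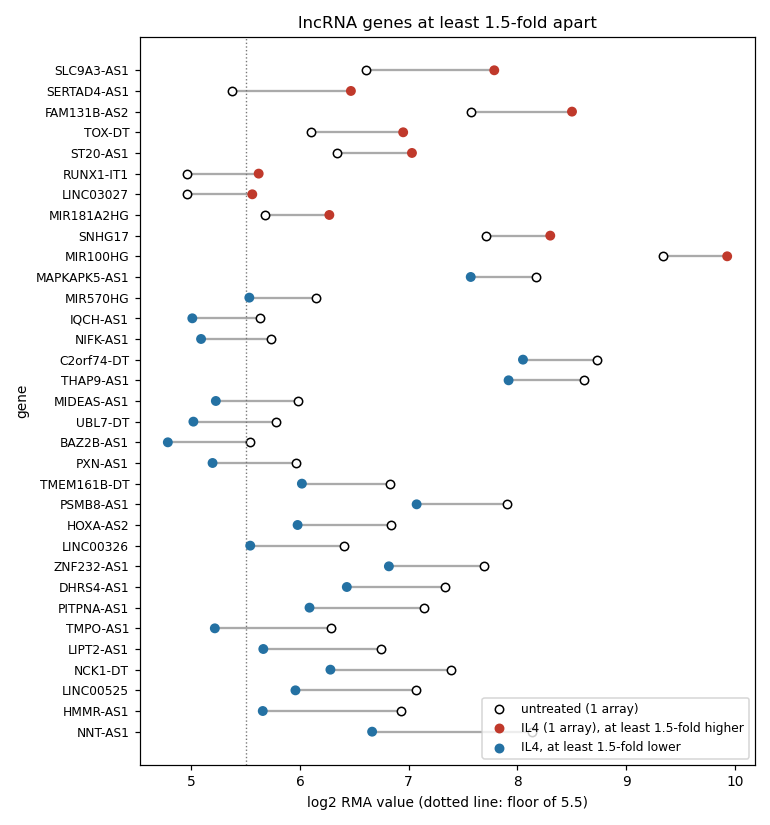
Log2 RMA values of the 33 lncRNA genes at least 1.5-fold apart, untreated (open) and IL4 (filled, red where higher and blue where lower), 1 array each, ordered by difference from SLC9A3-AS1 (1.18) at the top to NNT-AS1 (-1.47) at the bottom. The dotted line is the floor of 5.5, which 10 of the 33 genes passed in 1 array only.

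The naming classes are set beside the shares of all genes past the floor, 4.83% higher and 6.55% lower, and the differences between classes were not tested. Of the 155 genes with -AS1 or -AS2, 4 were at least 1.5-fold higher and 16 (10.3%) lower, with a median of -0.06. Of the 48 with -DT, 1 was higher and 4 (8.33%) lower, with a median of -0.13. A negative difference was found in 33 of the 48, and in 6388 of all 11651 genes past the floor. Of the 91 LINC genes 1 (1.10%) was higher and 2 (2.20%) were lower, below both shares. Their median was -0.02, and 74.7% lay within 1.2-fold.

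**Figure D3:**
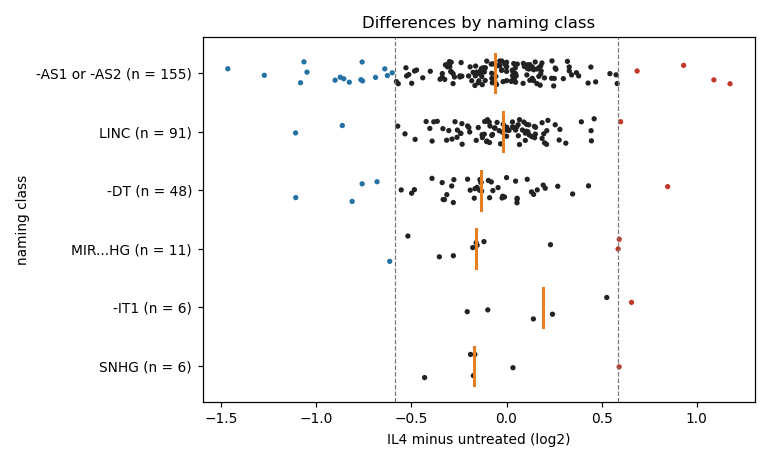
Log2 difference, IL4 minus untreated, of each of the 317 lncRNA genes (points) by naming class, with the class median (orange bar) and dashed lines at 1.5-fold. Of the 23 lower genes (blue) 16 are -AS1 or -AS2 genes, and the LINC genes (n = 91) have 3 points outside the lines.

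The genes of highest mean within a class differed by up to 1.6-fold. C2orf74-DT, given above with -0.68, was the one past 1.5-fold among the -AS, -DT and LINC genes taken this way. WAC-AS1 had 9.65 and 9.54, FGD5-AS1 9.36 and 9.08, and AFAP1-AS1, known for its high level in several carcinomas, 8.66 and 8.80 (second probe set 8.65 and 8.80). ZDHHC12-DT had 8.73 and 8.41, and STX17-DT 8.39 and 8.66. Among LINC genes LINC00674 had 8.68 and 8.20, a log2 difference of -0.48, whereas LINC00621 with 8.26 and 8.37 and LINC00623 with 8.19 and 8.15 were nearly level.

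Of the 11 miRNA hosts, 2 (18.2%) were at least 1.5-fold higher, 1 (9.09%) was lower and 8 lay between. Of all genes past the floor 4.83% were higher and 6.55% lower, and in a class of 11 a single gene is 9.09%. MIR100HG, the host of miR-100, let-7a-2 and miR-125b-1, had 9.34 in untreated cells and 9.93 with IL4 (0.59), and its other probe set was at 1.60 in both arrays. MIR181A2HG had 5.68 and 6.27 (0.59). MIR570HG had 6.15 and 5.53 (-0.61), and its second probe set, 5.75 and 5.65 (-0.10), was nearly level. As the mean of their probe sets MIR100HG (0.30) and MIR570HG (-0.36) fell short of 1.5-fold. MIR9-1HG, host of a microRNA best known from neural cells, had 7.85 and 7.34 (-0.52) and stayed short of 1.5-fold, and the mean of its probe sets gave -0.10.

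The other 7 hosts differed by -0.35 to 0.23. MIR4435-2HG had 6.22 and 5.87, MIR1915HG 7.31 and 7.03, and MIRLET7BHG 5.78 and 5.61. MIR3936HG had 6.14 and 5.98, MIR205HG 6.20 and 6.05, and MIR550A3HG 7.09 and 6.97. MIR1-1HG, host of the muscle microRNAs miR-1 and miR-133a, had 6.52 and 6.75. MIR100HG and MIRLET7BHG, whose let-7 microRNAs share a seed, had differences of 0.59 and -0.18. The second is smaller than the SD between probe sets, 0.27, and a further probe set of MIRLET7BHG, below the floor, gave 0.09. Levels of the mature microRNAs were not measured.

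Of the 6 SNHG genes 5 lay within 1.5-fold, and 4 of the 6 had a negative difference, as had 6388 of all 11651 genes past the floor. SNHG32 had 9.98 and 9.81, SNHG33 9.25 and 8.82 (-0.43), and SNHG19 8.44 and 8.25. SNHG18 had 6.18 and 6.21, and SNHG24 6.16 and 5.99. SNHG17, given above, was the one that passed the level, where 4.83% of all genes past the floor were higher by as much. Among the other -IT1 genes, SND1-IT1 had 5.49 and 6.02 (0.53), SPRY4-IT1 5.97 and 6.21, and NPTN-IT1 6.53 and 6.43.

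**Figure D4:**
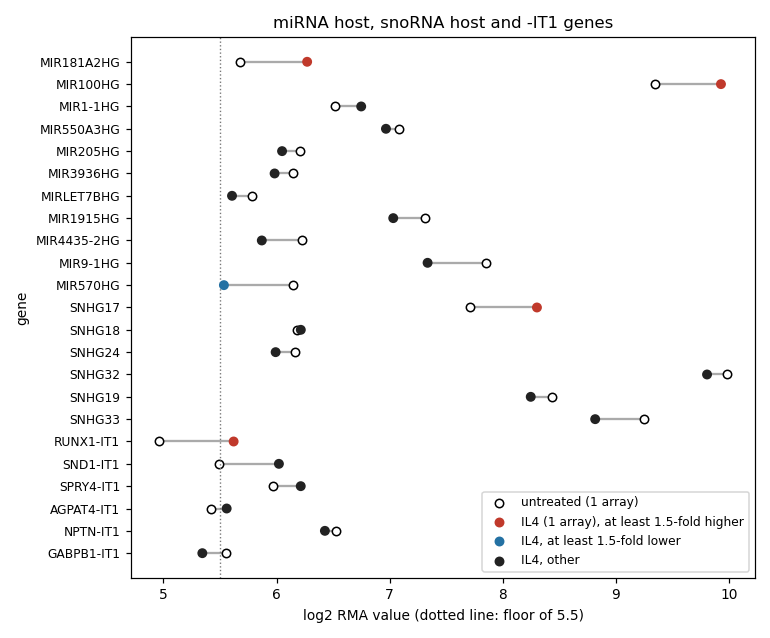
Log2 RMA values of the 11 MIR...HG, 6 SNHG and 6 -IT1 genes, untreated (open) and IL4 (filled, red or blue where at least 1.5-fold higher or lower), 1 array each, with the floor of 5.5 dotted. MIR181A2HG, MIR100HG, SNHG17 and RUNX1-IT1 are higher past 1.5-fold and MIR570HG is lower.

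Antisense, divergent and intronic transcripts were next set beside the genes they are named after. Of 209 such lncRNA genes, 189 had a measured partner and 159 a partner past the floor. In 94 of the 159 pairs both differences had the same sign. Here and in the sign counts below, genes that passed the floor in 1 array only are included, and their sign was set by that choice. Of the 11651 genes past the floor 5068 had a positive and 6388 a negative difference. In 129 pairs neither gene was 1.5-fold apart, in 11 the lncRNA gene alone was and in 13 the partner alone. Both were lower in 4 pairs, both higher in 1 and opposite in 1. Of the 159 partners 5 were higher and 14 lower, and of their lncRNA genes 3 and 14. Of all genes past the floor 4.83% were higher and 6.55% lower. Across the 159 pairs Pearson's r was 0.38 and Spearman's rho 0.28, given as a description since all pairs come from the same 2 arrays and genes are not replicates.

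The 4 pairs that were lower together were those of HMMR, TMPO, NCK1 and BAZ2B. HMMR, a receptor for hyaluronan that also binds the mitotic spindle, had 11.45 and 10.11 (-1.34) beside -1.27 for HMMR-AS1. TMPO, which encodes proteins of the nuclear lamina, had 10.89 and 10.21 (-0.68) beside -1.07 for TMPO-AS1. NCK1, an adaptor of tyrosine kinase signalling, had 9.63 and 9.02 (-0.61) beside -1.11 for NCK1-DT. BAZ2B, a bromodomain protein gene, had 8.15 and 7.27 (-0.88) beside 5.54 and 4.79 (-0.76) for BAZ2B-AS1. TMPO-AS1 and BAZ2B-AS1 passed the floor only in untreated cells, and so were higher there by the way they were chosen. The values of TMPO and NCK1 fell short of 1.5-fold when all probe sets of the gene were averaged, at -0.49 and -0.47.

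TOX was the partner that was higher together with its lncRNA gene. It had 8.01 and 9.13 (1.12), or 0.84 as the mean of its probe sets, beside 0.85 for TOX-DT. The opposite pair was PITPNA-AS1 (-1.05) and PITPNA, a phosphatidylinositol transfer protein gene, with 7.05 and 7.67 (0.62), which was 0.53 as the mean of its probe sets. PXN, the gene of the focal adhesion protein paxillin, had 8.15 and 8.53 (0.38) beside 5.96 and 5.20 (-0.77) for PXN-AS1.

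Most lncRNA genes with the larger differences had a partner that differed less. NNT, the mitochondrial transhydrogenase gene whose start site lies 50 bases from that of NNT-AS1, had 9.01 and 8.58 (-0.44) beside -1.47. PSMB8, a subunit of the immunoproteasome, had 10.11 and 9.83 (-0.28) beside 7.90 and 7.07 (-0.83) for PSMB8-AS1, whose second probe set was below the floor with -0.07. ZNF232 had -0.15 beside -0.87 for ZNF232-AS1. TMEM161B had -0.25 beside 6.83 and 6.02 (-0.81) for TMEM161B-DT, which was -0.29 as the mean of its probe sets. SERTAD4 had 6.07 and 6.30 (0.23) beside 1.09. SLC9A3 and FAM131B were below the floor in both arrays, so nothing can be read from their differences.

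Partner genes that were apart without their lncRNA gene were also found in both directions. ITGB8, an integrin subunit gene, had 5.30 and 7.54 (2.24), but 0.74 as the mean of its probe sets, beside 5.32 and 5.90 (0.58) for ITGB8-AS1, just short of the level. FRMD6 had 8.99 and 10.40 (1.41) beside 5.15 and 5.59 (0.44) for FRMD6-AS1. OIP5, a centromere protein gene, had 9.01 and 7.74 (-1.27) beside 8.74 and 8.46 (-0.28) for OIP5-AS1. NEK2, a mitotic kinase gene, had 10.51 and 9.29 (-1.21) beside 5.96 and 5.82 (-0.14) for NEK2-DT. ID2, an inhibitor of basic helix-loop-helix factors, had 8.81 and 7.69 (-1.11) beside 5.54 and 5.41 (-0.13) for ID2-AS1. The sign of both differences was the same in 11 of the 13 such pairs, these 5 included. ITGB8-AS1 and FRMD6-AS1 passed the floor only with IL4, and ID2-AS1 only in untreated cells. The sign of these lncRNA genes was therefore set by the way they were chosen, and their agreement with the partner carries no weight. The opposite pairs were CBR3 (-0.72) beside CBR3-AS1 (0.18) and CCDC18 (-0.68, or -0.28 as the mean of its probe sets) beside CCDC18-AS1 (0.18).

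**Figure D5:**
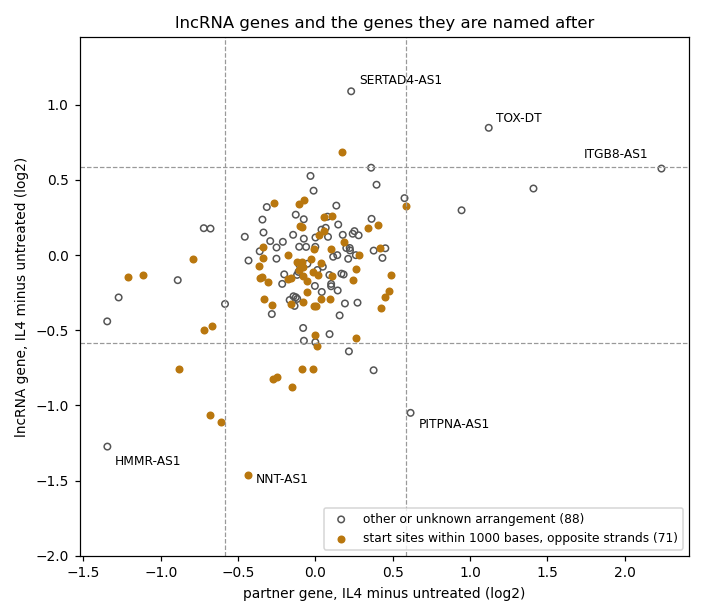
Log2 difference, IL4 minus untreated, of 159 lncRNA genes (vertical axis) against that of the gene each is named after (horizontal axis), filled where both start within 1000 bases on opposite strands (71 pairs) and open otherwise (88), with dashed lines at 1.5-fold. HMMR-AS1, TMPO-AS1, NCK1-DT and BAZ2B-AS1 lie with their partners in the lower left corner, TOX-DT in the upper right and PITPNA-AS1 in the lower right.

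The genomic arrangement of a pair was not used to choose the genes. For 87 lncRNA genes RefSeq places the start site within 1000 bases of the partner's start on the other strand, so that both may use the same promoter region. Of these 87, 1 was at least 1.5-fold higher (ST20-AS1) and 14 (16.1%) were lower, where 6.55% of all genes past the floor were. The 14 include genes that passed the floor only in untreated cells, such as BAZ2B-AS1 and MIDEAS-AS1 (5.98 and 5.23), and so were higher there by selection. Of the 59 genes in another arrangement 4 were higher and 5 (8.47%) lower. Genes for which a start site of the pair was missing are in neither group. The median difference was -0.14 in the first group and -0.04 in the second. Among the 71 partners past the floor in the first group 8 were lower and none was higher, with a median of -0.08. Of all genes past the floor 6.55% were lower and 4.83% higher. The partner's difference had the sign of the lncRNA gene's in 47 of the 71. In the second group 19 of 42 pairs had the same sign. The difference between both arrangements was noticed in these data and has no test here.

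For LINC, SNHG and MIR...HG genes the nearest protein-coding gene was used instead. It was measured for 75 of 108 genes and past the floor for 54. Of these 54 neighbours 3 were at least 1.5-fold higher and 2 lower, where 4.83% and 6.55% of all genes past the floor were. The sign was the same in 36 of the 54, with r of 0.21 and rho of 0.28, again as a description. MIR100HG (0.59) lay nearest to BLID, with 5.98 and 6.96 (0.98), the one pair in which both were higher. MIR570HG (-0.61) lay nearest to MUC20, a mucin gene, with 6.45 and 7.14 (0.70), which was 0.27 as the mean of its probe sets. Near MIR3936HG the transporter gene SLC22A4 had 7.23 and 8.19 (0.96), and near MIR550A3HG the gene PRR15 had 6.73 and 5.53 (-1.20), while both hosts were within 1.2-fold.

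Among the 317 genes 10 (3.16%) had exactly the same value in both arrays, among them TNRC6C-AS1, RNASEH1-DT and LINC01016. Over all probe sets 4528 (8.28%) did. The origin of these equal values was not tested.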

How the data were processed

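The authors made biotin-labelled cRNA from total RNA of untreated and IL4-treated H2228 cells, hybridised it to 1 array each and deposited log2 values, 1 per probe set. The submitters' processing notes name RMA, with no version. RMA subtracts background, equalises the distributions of arrays and summarises probes. No scanner file was used here, so these steps were not repeated. The number of arrays limits the precision. Probe sets were named through the platform annotation (41097 with 1 gene, 41043 of them matched to RefSeq by gene number), which is trusted for strand: probe orientation at antisense genes was not checked. Another 32 genes of the naming rule reached the floor only on probe sets with several genes (14 LINC, 10 SNHG, 5 MIR...HG) and are not analysed here.

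Differences are IL4 minus untreated, computed with Python 3.11.15, pandas 2.3.3 and numpy 2.4.6. The counting was tested on simulated data. The 1.5-fold level is a log2 difference of 0.585. Genes, lists and the level were chosen with earlier results of these data known. Named are the 10 largest increases and decreases among genes with a mean of at least 5.5, the 3 of highest mean per class, all MIR...HG genes, SNHG genes and list members past 1.5-fold, and partner or neighbour genes. Others were named after their values were seen. Alternatives were the floor, the fold level, the probe sets used, and loess (fraction 0.3), quantile or median scaling.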

Additional observations from a re-analysis of the deposited data

How the results depend on the processing

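With the 2-fold level in place of 1.5-fold, 2 lncRNA genes (0.63%) were higher and 7 (2.21%) lower, where 1.80% and 1.39% of all genes past the floor were. With a floor of 7.0, 65 genes were left, of which 5 (7.69%) were higher and 10 (15.4%) lower, with a median difference of -0.17, where 5.97% and 7.15% of all genes past that floor were higher and lower. With a floor of 5.0 there were 521 genes, 11 (2.11%) higher and 27 (5.18%) lower, and the median was -0.032. Of all genes past that floor 4.35% were higher and 5.91% lower. Under the other alternatives run, 7 to 10 genes (2.75% to 3.27%) were higher and 16 to 24 (6.28% to 7.64%) lower. Of the genes they were set beside, 3.30% to 5.48% were higher and 4.75% to 7.26% lower. These ranges pool the settings. With the probe sets of a gene averaged, 221 lncRNA genes were left, 7 (3.17%) higher and 16 (7.24%) lower. Of all such genes 4.32% were higher and 4.75% lower. With the floor asked of both arrays, 255 genes were left, 7 (2.75%) higher and 16 (6.28%) lower, where 4.58% and 5.92% of all such genes were. Of the 33 lncRNA genes past 1.5-fold, 12 fell short under another choice of probe sets or scaling. As the mean of their probe sets these were DHRS4-AS1 at -0.52, FAM131B-AS2 at 0.47, LINC03027 at 0.45, MAPKAPK5-AS1 at -0.50, MIR100HG at 0.30, MIR570HG at -0.36, NIFK-AS1 at -0.35, PSMB8-AS1 at -0.45, SNHG17 at 0.49, TMEM161B-DT at -0.29 and UBL7-DT at -0.52, and without probe sets that may bind several transcripts ZNF232-AS1 was at -0.35. In 796 recomputations of single genes, partners included, no difference past 1.5-fold changed sign. Among smaller differences 16 values of 9 genes did, LINC00623 (-0.04, but 0.02 after loess) among them. Many of the 796 could not differ from the main value. Median scaling removed a median difference of 0.0, and a gene with 1 probe set keeps its value when probe sets are averaged or chosen otherwise. The count is therefore no measure of how stable the values are. The symbols of the annotation gave the same genes, since no symbol was updated.

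Each condition has a single array, so none was left out, and no background reading stood beside the values. No paired analysis was possible because each condition has 1 array.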

Other observations

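Some lncRNA genes known by other names were also read. Of 60 listed, 42 were measured and 24 passed the floor, with a median difference of 0.04. The listed PSMA3-AS1 and TRAF3IP2-AS1 also carry a name of the rule used in the report. At least 1.5-fold higher were 2, and 2 were lower, where 4.83% and 6.55% of all genes past the floor were. WAKMAR2 and HCG11 passed the floor in 1 array only. WAKMAR2 had 4.01 in untreated cells and 5.53 with IL4 (1.52 on the log2 scale), and its neighbour TNFAIP3, an inhibitor of NF-kB signalling, had 7.79 and 10.90 (3.11). FTX, which lies in the X-inactivation centre, had 6.89 and 7.61 (0.72), or 0.39 as the mean of its probe sets. DLEU1 had 8.34 and 6.86 (-1.48), while its neighbour TRIM13 had 6.84 and 7.07 (0.23). HCG11 had 5.54 and 4.53 (-1.01, or -0.71 without probe sets that may bind several transcripts), and its neighbour HMGN4 was at 10.32 and 10.31. Abundant nuclear and cytoplasmic lncRNAs differed less: MALAT1 had 12.28 and 12.62, NORAD 11.18 and 10.93, and TUG1 8.93 and 9.02.

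Of 30 listed snoRNA hosts and translation genes 18 were measured and 17 passed the floor, with a median of -0.03. TAF1D, a subunit of the RNA polymerase I factor SL1 and a snoRNA host, was the one past 1.5-fold, with 7.13 and 7.73 (0.60). Of all genes past the floor 4.83% were higher and 6.55% lower by as much. GAS5 had 5.88 and 5.77, ZFAS1 10.70 and 10.59, and DANCR 7.82 and 7.85. Of 24 listed lncRNA genes known to respond to inflammatory or stress signals 11 were measured and 6 passed the floor. WAKMAR2 was the one past 1.5-fold, where 4.83% of all genes past the floor were higher by as much. It passed the floor only with IL4, and so was higher there by the way it was chosen.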
